A study of Homo sapiens with 8 samples.

Results

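The secreted WNT antagonists are proteins that cells release to keep WNT ligands from signalling. The 9 genes described here were chosen by name, with earlier results of these data known, out of 61209 gene names in the count table. They were SFRP1, SFRP2, SFRP4, SFRP5, FRZB, WIF1, DKK1, DKK2 and DKK3. DKK4, with 0 CPM in every library, was not among them. Counts of the members beside the share of all tested genes are therefore a description. All 9 were in the table, and 7 of them were among the 22554 genes with enough counts to test; SFRP4 and WIF1 were not. RNA was sequenced from the established human embryonic stem cell line H1, of the genotype Msx1-P2A-tdTomato, in which a red fluorescent reporter follows the MSX1 gene. The cells of every group were first given, on day 0, 50 ng/mL Activin A, 10 ng/mL FGF2, 6 µM CHIR99021 and 40 ng/mL BMP4. From day 1, 1 µM CHIR99021 and 60 ng/mL BMP4 followed for 3 days, a course meant to give lateral plate mesoderm. CHIR99021 inhibits GSK3 and so switches on WNT signalling inside the cell, and every group, the Mock groups included, had been exposed to it. On day 4 the cells were pelleted at 25000 cells per well. On day 5 they were moved and kept for 3 more days, and on day 8 they were sorted. The 4 groups of 2 libraries each were FGF8+10 Msx1+Pdgfra+ cells, FGF8+10 Msx1+Pdgfralow cells, Mock Msx1+Pdgfra+ cells and Mock Msx1+Pdgfralow cells, called Pdgfra-positive and Pdgfra-low below. FGF8+10 stands for FGF8 and FGF10 at 500 ng/mL each. The labels do not give the composition of the Mock medium, and they do not say whether the reporter line was 1 clone or whether the numbered biological replicates were separate differentiations, so p-values measure the spread between these libraries only.

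WNT ligands signal through Frizzled receptors together with the co-receptors LRP5 and LRP6, which stabilise beta-catenin in the cell. SFRP proteins and FRZB, also known as SFRP3, carry a cysteine-rich domain like that of Frizzled and bind WNT ligands outside the cell, as does WIF1 through a domain of its own. DKK1 and DKK2 act on the co-receptors instead, whereas DKK3 is a divergent relative whose role in WNT signalling is less settled. In the embryonic limb and body wall these antagonists help to shape where WNT signals reach mesenchyme, cartilage and muscle.

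Libraries held 47698561 to 64390444 counts, and 6 counts corresponded to 0.0883 to 0.134 CPM (counts scaled to a common library size that allows for RNA composition). Limb and lateral plate mesenchyme markers were detected, 8 of 8, and summed to 1084 to 1089.5 CPM in FGF8+10 Pdgfra-positive, 760 to 771 in FGF8+10 Pdgfra-low, 994 to 998 in Mock Pdgfra-positive and 867 to 879 CPM in Mock Pdgfra-low libraries. HAND2 and PRRX1 made up most of each sum. With FGF8+10, 5 were higher and 2 lower in Pdgfra-positive cells (all tested genes 25.8% and 25.1%). In Pdgfra-low cells 2 were higher and 5 lower (27.9% and 27.7%). TBX4 (log2 fold change -1.41 in Pdgfra-positive and -2.60 in Pdgfra-low cells) and PRRX2 (-1.95 and -1.72) fell in both. PDGFRA, the sort gene, stood at 712 to 716 CPM in FGF8+10 Pdgfra-positive and 279 to 292 CPM in FGF8+10 Pdgfra-low libraries, and at 453 to 455 CPM in Mock Pdgfra-positive and 189 to 194 CPM in Mock Pdgfra-low libraries. PDGFRA and MSX1 were both higher with FGF8+10 (log2 fold change in Pdgfra-positive cells 0.65 ± 0.024 and 1.21 ± 0.060, SE). The cells were sorted after treatment, so a change of expression and a change in which cells entered a gate cannot be told apart. In these bulk libraries, fewer cells of a type and less RNA per cell cannot be told apart either.

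The summed level of the antagonists was lower with FGF8+10, in Pdgfra-positive cells only with FRZB in the sum, and a different member led in each treatment. Expressed as CPM per kilobase of exon, the scale on which genes of different length can be compared, the 9 summed to 106 and 109.9 in FGF8+10 Pdgfra-positive libraries and 388 and 387 in Mock Pdgfra-positive libraries. In Pdgfra-low cells the sums were 64.4 and 67.3 with FGF8+10 and 399 and 403 with Mock. Both FGF8+10 pairs lay below both Mock pairs, and the mean sum was 3.58-fold lower in Pdgfra-positive and 6.09-fold lower in Pdgfra-low cells. Without FRZB the other 8 summed to 95.6 and 98.7 with FGF8+10 and 73.4 and 75.9 with Mock in Pdgfra-positive libraries, and to 56.3 and 58.8 with FGF8+10 and 92.7 and 93.5 with Mock in Pdgfra-low libraries. They were thus higher with FGF8+10 in Pdgfra-positive and lower in Pdgfra-low libraries. FRZB was not the only member to fall in Pdgfra-positive cells. The mean of DKK2 went from 31.1 with Mock to 0.41 with FGF8+10 and that of SFRP2 from 27.7 to 12.2, and SFRP5 and DKK3 fell too. SFRP1 rose from 5.60 to 62.2 and DKK1 from 5.38 to 20.9. FRZB made up 10.2% and 10.2% of the sum in FGF8+10 Pdgfra-positive and 12.6% and 12.6% in FGF8+10 Pdgfra-low libraries, against 81.1% and 80.4% in Mock Pdgfra-positive and 76.8% and 76.8% in Mock Pdgfra-low libraries. SFRP1 made up 57.7% and 57.2% in FGF8+10 Pdgfra-positive and 33.4% and 33.4% in FGF8+10 Pdgfra-low libraries, against 1.47% and 1.42% in Mock Pdgfra-positive and 0.325% and 0.36% in Mock Pdgfra-low libraries. Grouped by mode of action, the WNT-binding members (the SFRPs, FRZB and WIF1) summed to 83.6 and 87.5 CPM per kilobase in FGF8+10 Pdgfra-positive and 33.2 and 34.9 in FGF8+10 Pdgfra-low libraries, against 349.9 and 348.9 in Mock Pdgfra-positive and 337 and 340.3 in Mock Pdgfra-low libraries. DKK1 and DKK2, which act on LRP5 and LRP6, summed to 21.6 and 21.0 in FGF8+10 Pdgfra-positive and 29.7 and 30.8 in FGF8+10 Pdgfra-low libraries, against 36.2 and 36.7 in Mock Pdgfra-positive and 60.4 and 61.0 in Mock Pdgfra-low libraries. Both sums were lower in every FGF8+10 library than in every Mock library. Without FRZB, the WNT-binding sum was 72.8 and 76.3 with FGF8+10 and 35.4 and 37.6 with Mock in Pdgfra-positive libraries, which is the opposite direction, and 25.1 and 26.4 with FGF8+10 and 30.7 and 30.8 with Mock in Pdgfra-low libraries. SFRP1 was the member with the largest share in FGF8+10 Pdgfra-positive libraries, DKK1 in FGF8+10 Pdgfra-low libraries, at 45.4% and 45.1%, and FRZB in both Mock groups.

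**Figure D1:**
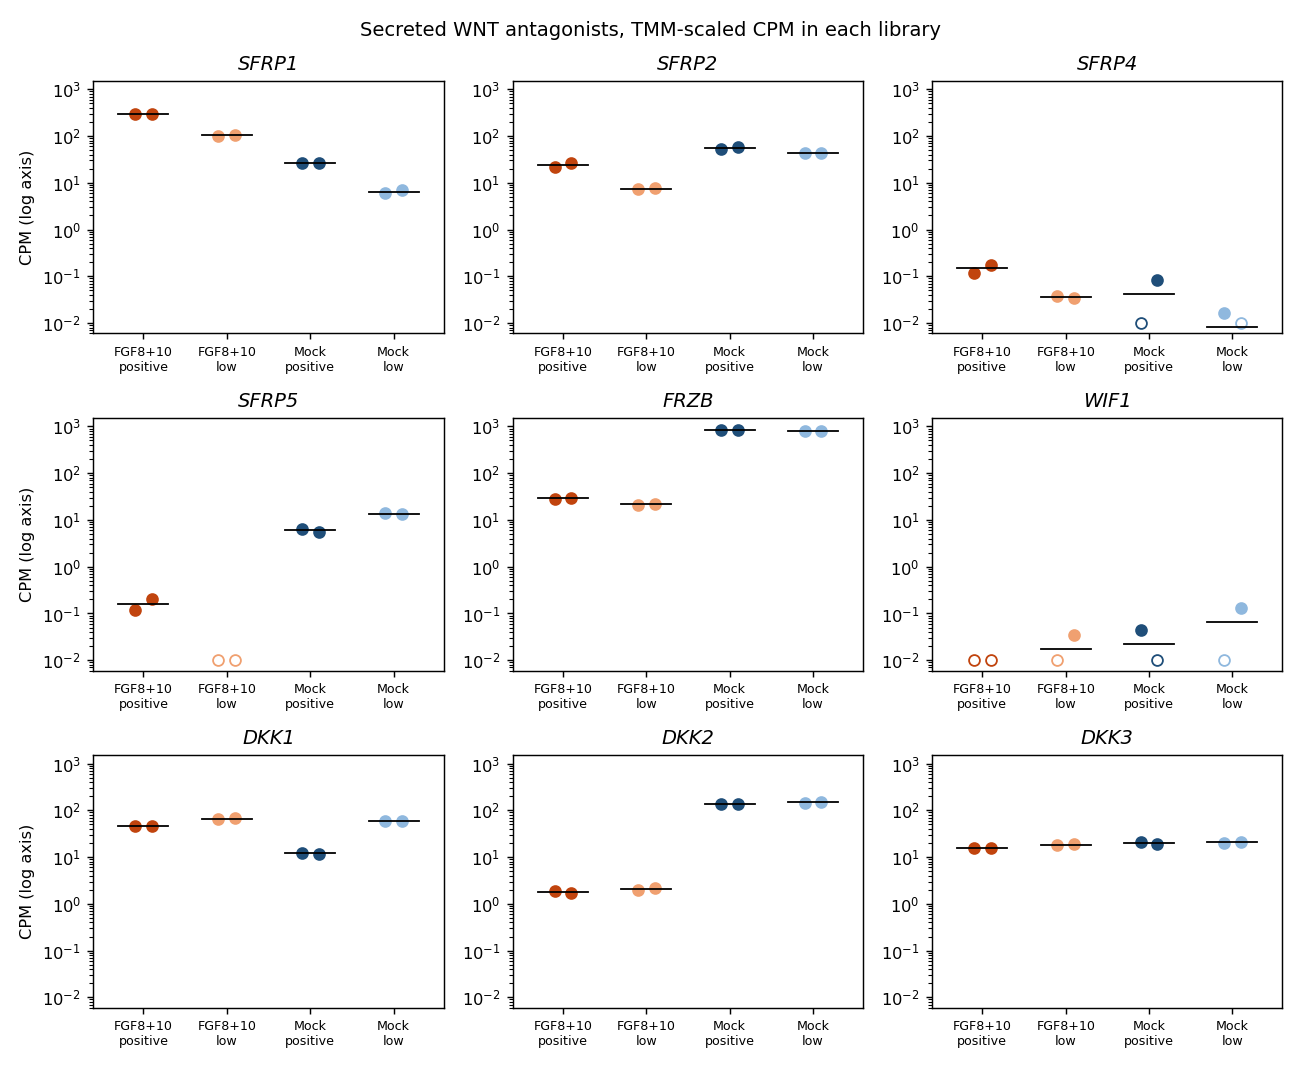
CPM of the 9 antagonists in each of the 8 libraries on a log axis (points) with the mean of each group (bars), and open circles at the bottom of an axis for libraries with 0 counts. FRZB and DKK2 stand lower in the 4 FGF8+10 libraries, SFRP1 stands higher in them, and DKK1 is low in the Mock Pdgfra-positive libraries, at 12.2 and 11.7 CPM.

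**Figure D2:**
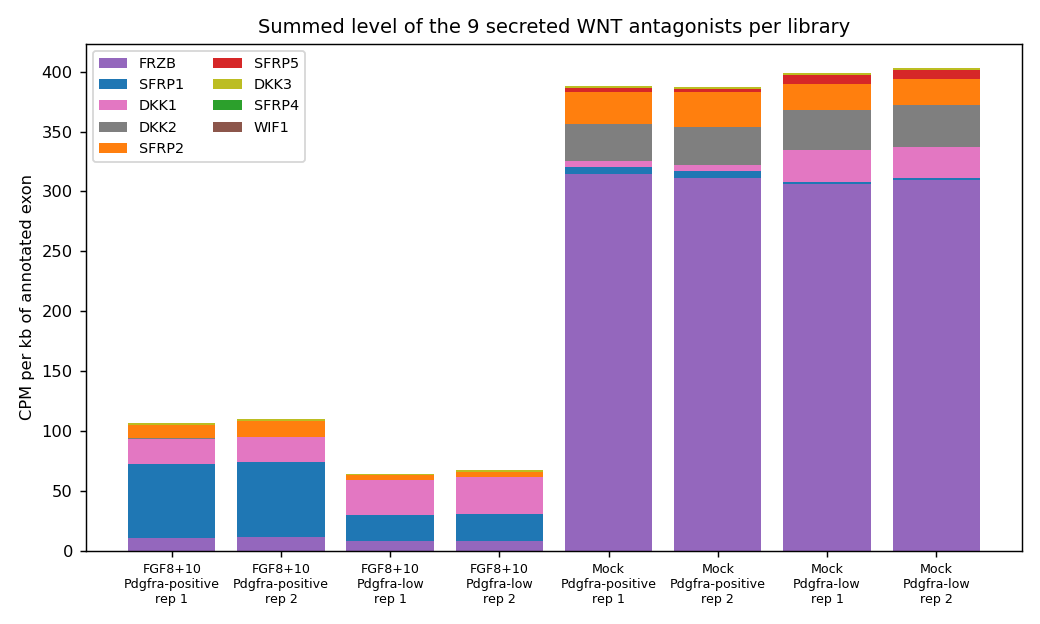
Summed CPM per kilobase of the 9 antagonists in each library, divided by gene. The 4 FGF8+10 libraries sum to between 64.4 and 109.9 and the 4 Mock libraries to between 387 and 403, most of which is FRZB.

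With FGF8+10, 6 of the 7 tested antagonists changed at least 2-fold in Pdgfra-positive cells and 5 in Pdgfra-low cells. In Pdgfra-positive cells edgeR's quasi-likelihood test with Benjamini-Hochberg adjustment at 0.05 called 7 of the 7, 2 higher and 5 lower, where it called 50.9% of all tested genes, 25.8% higher and 25.1% lower. At 2-fold the count was 6, 2 higher and 4 lower, where 17.1% of all tested genes were called, 7.29% higher and 9.83% lower. In Pdgfra-low cells 6 were called, 2 higher and 4 lower, against 55.7% of all tested genes, 27.9% higher and 27.7% lower. At 2-fold the count there was 5, 1 higher and 4 lower, against 21.3% of all tested genes, 9.45% higher and 11.8% lower. The median log2 fold change of the 7 was -1.18 in Pdgfra-positive and -2.54 in Pdgfra-low cells, where all tested genes had medians of -0.01 and -0.02. In both populations the counts include SFRP5 among the lower members, also at 2-fold. It passed the filter through the Mock groups alone, where it was high, so the filter itself favoured a lower call. Setting SFRP5 at its bound in Pdgfra-low cells left the median at -2.54. This had to be so, because SFRP5 stayed the lowest of the 7, and it does not address the filter. Scaling by library totals alone moved the median of all genes to 0.16 and 0.15 and the share of called genes that were higher to 67.2% and 63.5%, where the main scaling gave 50.7% and 50.2%.

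SFRP1, an SFRP that binds WNT ligands, was the antagonist that rose most with FGF8+10. It lies on chromosome 8 (41261962 to 41309473, minus strand, GRCh38). Pdgfra-positive libraries had 291 and 298 CPM with FGF8+10 and 26.9 and 26.1 CPM with Mock. Pdgfra-low libraries had 102 and 106 CPM with FGF8+10 and 6.14 and 6.86 CPM with Mock. The 4 pairs of libraries did not overlap, and their order ran from FGF8+10 Pdgfra-positive through FGF8+10 Pdgfra-low and Mock Pdgfra-positive to Mock Pdgfra-low. The log2 fold change with FGF8+10 was 3.47 ± 0.041 (SE, n = 2 libraries per group) in Pdgfra-positive cells, 11.1-fold (edgeR adjusted p = 1.23e-46). In Pdgfra-low cells it was 4.00 ± 0.050, 16.0-fold (edgeR adjusted p = 1.17e-45).

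FRZB, the most abundant of the 9 per kilobase in Mock cells, fell with FGF8+10 in both populations. Its gene lies on chromosome 2 (182833275 to 182866637, minus strand). Pdgfra-positive libraries had 28.6 and 29.6 CPM with FGF8+10 and 829 and 821 CPM with Mock, and Pdgfra-low libraries had 21.4 and 22.3 CPM with FGF8+10 and 808 and 816 CPM with Mock. All 4 Mock libraries lay close together and far above all 4 FGF8+10 libraries. The log2 fold change was -4.83 ± 0.029 in Pdgfra-positive cells, 28.3-fold lower (edgeR adjusted p = 2.87e-58), and -5.22 ± 0.030 in Pdgfra-low cells, 37.2-fold lower (edgeR adjusted p = 9.99e-59).

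SFRP5, another SFRP, had almost no reads left with FGF8+10. It lies on chromosome 10 (97766751 to 97771999, minus strand). Pdgfra-positive libraries had 0.118 and 0.206 CPM with FGF8+10, from 8 and 14 counts, and 6.34 and 5.56 CPM with Mock. Pdgfra-low libraries had 0 and 0 counts with FGF8+10, against 13.9 and 13.5 CPM with Mock. Every FGF8+10 library was below every Mock library. In Pdgfra-positive cells the FGF8+10 level was 0.0274 of the Mock level (exact binomial 95% interval of counting error over read pairs 0.0135 to 0.0496), a log2 fold change of -5.18 ± 0.25 (edgeR adjusted p = 4.22e-22). In Pdgfra-low cells it was at least 255-fold lower, taking 6 counts (3 read pairs) over the group as the limit that 0 counts allow (edgeR adjusted p = 2.4e-27).

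SFRP2, also a WNT-binding SFRP, fell in both populations, and the size differed between populations. It lies on chromosome 4 (153780591 to 153789083, minus strand). Pdgfra-positive libraries had 22.3 and 26.5 CPM with FGF8+10 and 52.5 and 58.0 CPM with Mock, and Pdgfra-low libraries had 7.24 and 7.83 CPM with FGF8+10 and 43.9 and 44.1 CPM with Mock. The order ran from Mock Pdgfra-positive through Mock Pdgfra-low and FGF8+10 Pdgfra-positive to FGF8+10 Pdgfra-low, with no overlap between pairs. The log2 fold change was -1.18 ± 0.067 in Pdgfra-positive cells (edgeR adjusted p = 5.47e-20) and -2.54 ± 0.078 in Pdgfra-low cells (edgeR adjusted p = 3.17e-30).

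SFRP4, an SFRP on chromosome 7 (37905932 to 38025695, minus strand), and WIF1, on chromosome 12 (65050626 to 65121305, minus strand), were at the limit of detection. SFRP4 had 8 and 12 counts in FGF8+10 Pdgfra-positive, 2 and 2 in FGF8+10 Pdgfra-low, 0 and 4 in Mock Pdgfra-positive and 1 and 0 in Mock Pdgfra-low libraries. WIF1 had 0 and 0 counts in FGF8+10 Pdgfra-positive, 0 and 2 in FGF8+10 Pdgfra-low, 2 and 0 in Mock Pdgfra-positive and 0 and 8 in Mock Pdgfra-low libraries. SFRP4 had its highest counts in FGF8+10 Pdgfra-positive libraries, and WIF1 had more than 2 counts in 1 Mock Pdgfra-low library alone. The SFRP4 level in FGF8+10 Pdgfra-positive libraries was 3.43 times that in Mock Pdgfra-positive libraries (exact binomial 95% interval over read pairs 0.73 to 32.2). Tested without the low-count filter, SFRP4 had edgeR adjusted p of 0.522 in Pdgfra-positive and 0.598 in Pdgfra-low cells, and WIF1 had 0.48 and 0.672, so no difference with FGF8+10 was detectable at this depth.

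Among the DKK genes, DKK2 fell in both populations. DKK2, which binds the LRP co-receptors, lies on chromosome 4 (106921802 to 107283806, minus strand). Pdgfra-positive libraries had 1.90 and 1.66 CPM with FGF8+10 and 133 and 136 CPM with Mock, and Pdgfra-low libraries had 2.00 and 2.20 CPM with FGF8+10 and 146 and 150.4 CPM with Mock. The FGF8+10 libraries all had 2.20 CPM or less and the Mock libraries all had 133 CPM or more. The log2 fold change was -6.24 ± 0.066 in Pdgfra-positive cells, 75.9-fold lower (edgeR adjusted p = 1.25e-48), and -6.14 ± 0.066 in Pdgfra-low cells, 70.5-fold lower (edgeR adjusted p = 1.9e-48).

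DKK1, the LRP5 and LRP6 blocker best known from head and limb development, rose in Pdgfra-positive cells. It lies on chromosome 10 (52314281 to 52318042, plus strand). Pdgfra-positive libraries had 46.9 and 45.9 CPM with FGF8+10 and 12.2 and 11.7 CPM with Mock. Pdgfra-low libraries had 64.8 and 67.3 CPM with FGF8+10 and 59.1 and 58.4 CPM with Mock. The Mock Pdgfra-positive pair stood far below the other 3 pairs, which ran from FGF8+10 Pdgfra-positive through Mock Pdgfra-low up to FGF8+10 Pdgfra-low. The log2 fold change was 1.96 ± 0.060 in Pdgfra-positive cells, 3.89-fold (edgeR adjusted p = 3.56e-30), and 0.17 ± 0.049 in Pdgfra-low cells, 1.13-fold (edgeR adjusted p = 0.00278). Without FGF8+10 Pdgfra-low replicate 2 the Pdgfra-low change was 0.144 with an edgeR adjusted p of 0.0523.

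DKK3 varied least of the 7 tested antagonists. It lies on chromosome 11 (11956207 to 12009769, minus strand). Pdgfra-positive libraries had 15.9 and 16.0 CPM with FGF8+10 and 20.9 and 19.1 CPM with Mock, and Pdgfra-low libraries had 17.7 and 18.6 CPM with FGF8+10 and 20.3 and 20.8 CPM with Mock. In each population the FGF8+10 pair lay below the Mock pair. The log2 fold change was -0.33 ± 0.080 in Pdgfra-positive cells (edgeR adjusted p = 0.000572), -0.155 with an adjusted p of 0.103 under scaling by library totals alone, and -0.18 ± 0.079 in Pdgfra-low cells (edgeR adjusted p = 0.0554). DKK3 shares 5681 exon bases, 47.5% of its own, with USP47 on the opposite strand, and counting used no strand, so its level is uncertain and understated per kilobase. DKK1 shares 227 bases, 10.2% of its own, with PRKG1-AS1, an antisense gene with 160 counts over the 8 libraries.

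The sequences before the start sites of FRZB, SFRP5 and DKK1 are shown because these genes hold the group's leading member in Mock cells, the member without reads in FGF8+10 Pdgfra-low cells and a member that rose in Pdgfra-positive cells. Each run gives the 250 bases before the start from RefSeq (GRCh38.p14), 5′ to 3′ on the gene's own strand; capitals mark a TATA box match, TATAAA. The positions are chr2:182866638-182866887 for FRZB (minus strand), chr10:97772000-97772249 for SFRP5 (minus strand) and chr10:52314031-52314280 for DKK1 (plus strand).
FRZB: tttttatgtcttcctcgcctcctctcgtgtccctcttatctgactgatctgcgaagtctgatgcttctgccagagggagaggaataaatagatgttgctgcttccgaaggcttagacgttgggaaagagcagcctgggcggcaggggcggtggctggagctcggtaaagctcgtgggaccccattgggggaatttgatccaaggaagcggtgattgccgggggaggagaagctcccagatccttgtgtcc
SFRP5: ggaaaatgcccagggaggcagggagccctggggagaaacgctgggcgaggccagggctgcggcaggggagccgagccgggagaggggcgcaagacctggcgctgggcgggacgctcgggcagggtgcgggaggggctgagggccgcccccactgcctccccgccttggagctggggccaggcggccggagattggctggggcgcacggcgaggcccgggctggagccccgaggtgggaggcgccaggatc
DKK1: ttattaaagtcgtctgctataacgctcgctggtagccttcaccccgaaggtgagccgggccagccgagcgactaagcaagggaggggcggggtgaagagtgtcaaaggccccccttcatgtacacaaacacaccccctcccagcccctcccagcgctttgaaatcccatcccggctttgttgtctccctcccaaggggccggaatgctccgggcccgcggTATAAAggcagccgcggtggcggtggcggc
The SFRP5 window is 76.8% G or C with 21 CpG, the DKK1 window 62.8% with 18 and the FRZB window 55.6% with 11, where the medians over 27305 promoters were 58.0% and 11. The 6 antagonists searched were SFRP2, SFRP4, SFRP5, FRZB, WIF1 and DKK1, and the promoters of SFRP1, DKK2 and DKK3 were not searched. In the 6, the TCF/LEF motif CTTTGAT and the ETS motif CCGGAAG had no match on either strand, where 2.28% and 8.82% of all promoters held one. Of the 6, TATAAA was found in DKK1 alone, 30 bases before the start, and it was found in 11.1% of all promoters.

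**Figure D3:**
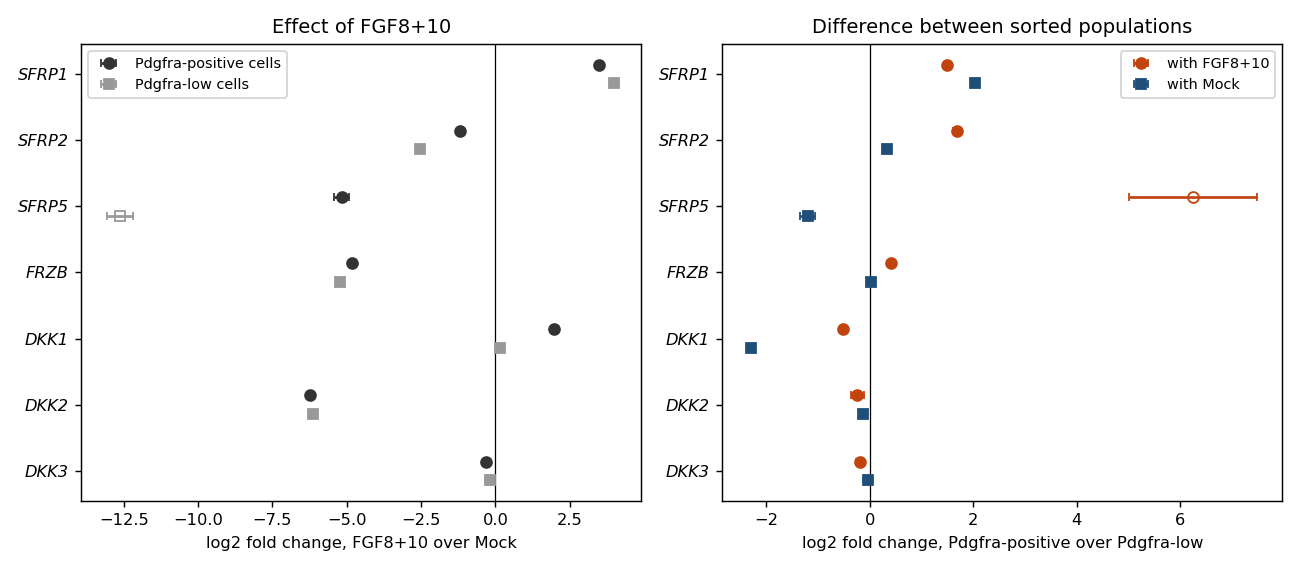
Log2 fold change of the 7 tested antagonists, FGF8+10 over Mock, for each sorted population (left), and Pdgfra-positive over Pdgfra-low cells for each treatment (right), with SE bars; open symbols mark SFRP5 where FGF8+10 Pdgfra-low cells, with no reads, enter the fold change. SFRP1 lies at 3.47 and 4.00 and FRZB at -4.83 and -5.22, whereas DKK1 lies at 1.96 in Pdgfra-positive and 0.17 in Pdgfra-low cells.

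Between the populations, SFRP1 and SFRP2 were higher in Pdgfra-positive cells and DKK1 was higher in Pdgfra-low cells under both treatments. With FGF8+10, 6 of the 7 were called, 4 higher and 2 lower in Pdgfra-positive cells, where 41.4% of all tested genes were called, 19.6% higher and 21.7% lower. At 2-fold 3 were called, all 3 higher, where 6.38% of all tested genes were called, 3.13% higher and 3.26% lower. Both counts include SFRP5, which did not pass the filter with the libraries of this comparison alone; they were then 5, and 2 at 2-fold. With Mock 5 were called, 2 higher and 3 lower, against 25.8% of all tested genes, 12.4% higher and 13.4% lower. At 2-fold 3 were called, 1 higher and 2 lower, against 3.88% of all tested genes, 1.63% higher and 2.25% lower. The median log2 difference of the 7 was 0.41 with FGF8+10 and -0.04 with Mock, where all tested genes had 0.01 and 0.02.

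SFRP1 was 1.5 ± 0.035 higher on the log2 scale in Pdgfra-positive than in Pdgfra-low cells with FGF8+10 (edgeR adjusted p = 4.46e-34) and 2.03 ± 0.059 higher with Mock (edgeR adjusted p = 5.83e-30). SFRP2 was 1.69 ± 0.080 higher with FGF8+10 (edgeR adjusted p = 2.51e-22) and 0.33 ± 0.065 higher with Mock (edgeR adjusted p = 7.92e-05). DKK1 had a log2 difference of -0.51 ± 0.049 with FGF8+10 (edgeR adjusted p = 4.52e-12) and -2.30 ± 0.060 with Mock (edgeR adjusted p = 5.78e-32). These 3 kept their direction in both treatments. With Mock, SFRP5 was lower in Pdgfra-positive cells, by a log2 difference of -1.20 ± 0.15 (edgeR adjusted p = 1.58e-08), and with FGF8+10 it had 22 counts in Pdgfra-positive and 0 in Pdgfra-low libraries, too few to pass the filter on their own.

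FRZB was 0.41 ± 0.036 higher in Pdgfra-positive cells with FGF8+10 (edgeR adjusted p = 1.65e-13), and with Mock its difference was 0.02 ± 0.022 (edgeR adjusted p = 0.527). DKK2 had a difference of -0.24 ± 0.13 with FGF8+10 (edgeR adjusted p = 0.136) and -0.14 ± 0.039 with Mock (edgeR adjusted p = 0.00672). The DKK2 call with Mock was lost without Mock Pdgfra-positive replicate 1 (adjusted p = 0.0866) or Mock Pdgfra-low replicate 2 (adjusted p = 0.101). DKK3 had a difference of -0.19 ± 0.080 with FGF8+10 (edgeR adjusted p = 0.0496) and -0.04 ± 0.080 with Mock (edgeR adjusted p = 0.787). The DKK3 call with FGF8+10 was lost when any of 7 libraries was left out, with adjusted p of 0.0512 to 0.253.

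The FGF8+10 effect itself differed between the populations for 5 of the 7 antagonists, 4 of them with a higher value and 1 with a lower value in Pdgfra-positive cells, where 26% of all tested genes were called, 12% higher and 14% lower. At 2-fold 3 were called, all 3 higher, where 4.44% of all tested genes were called, 2.08% higher and 2.37% lower. SFRP5 is among the 5 and among the 3, and it passed the filter through the Mock groups alone. DKK1 differed most among the members with reads in every group: its log2 fold change was 1.79 ± 0.078 higher in Pdgfra-positive than in Pdgfra-low cells (edgeR adjusted p = 3.91e-23). SFRP2 fell less in Pdgfra-positive cells, with a difference of 1.36 ± 0.10 (edgeR adjusted p = 9.86e-15). FRZB likewise fell less, with a difference of 0.39 ± 0.042 (edgeR adjusted p = 3.1e-10). SFRP1 rose less in Pdgfra-positive cells, with a difference of -0.53 ± 0.070 (edgeR adjusted p = 5.51e-08). SFRP5 was called (edgeR adjusted p = 1.06e-06), but the size of its difference depends on a group without reads. DKK2 and DKK3 had differences of -0.10 ± 0.13 and -0.15 ± 0.11 (edgeR adjusted p = 0.648 and 0.38).

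Some markers of other cell types moved with treatment as well. The cardiac muscle list summed to 22.8 to 23.8 CPM in FGF8+10 Pdgfra-positive and 11.3 to 11.7 in FGF8+10 Pdgfra-low, against 148 to 152 in Mock Pdgfra-positive and 137 to 144 CPM in Mock Pdgfra-low libraries, and 3 of 5 tested markers were lower in Pdgfra-positive and 4 of 5 in Pdgfra-low cells, where 25.1% and 27.7% of all tested genes were lower. The cardiac myosins MYH6 and MYH7 were at or near 0 in all 4 groups, at most 0.0341 CPM with FGF8+10 and at most 0.291 CPM with Mock, and were not tested. TNNT2 and TNNI1 made up most of the cardiac sum in every library. MYL7, among the lower markers in both populations, had at most 0.153 CPM with FGF8+10 and passed the filter through the Mock groups alone. TNNT2 had 0.666 and 0.81 CPM in FGF8+10 Pdgfra-positive libraries and 58.4 and 65.7 CPM in Mock Pdgfra-positive libraries. NKX2-5 had log2 fold changes of 0.29 in Pdgfra-positive and 0.27 in Pdgfra-low cells (edgeR adjusted p = 0.338 and 0.328). ACTN2 had -0.19 and -1.01 (edgeR adjusted p = 0.59 and 0.000774). The mesothelium and epicardium list, mostly KRT19, summed to 265 to 268 CPM in FGF8+10 Pdgfra-positive and 346 to 353 in FGF8+10 Pdgfra-low libraries, against 467 to 473 in Mock Pdgfra-positive and 598 to 602 CPM in Mock Pdgfra-low libraries. The endothelial list summed to 1716 to 1721 CPM in FGF8+10 Pdgfra-positive and 2201 to 2204 in FGF8+10 Pdgfra-low libraries, against 1226 to 1238 in Mock Pdgfra-positive and 1264 to 1272 CPM in Mock Pdgfra-low libraries, most of it KDR, which mesoderm progenitors also express. PECAM1, a defining endothelial marker, had 19.4 and 17.5 CPM in FGF8+10 Pdgfra-low and at most 3.11 CPM in the other libraries. With FGF8+10, 6 of 6 endothelial markers were higher in Pdgfra-low cells, where 27.9% of all tested genes were higher. In Pdgfra-positive cells 4 were higher and 1 lower, where 25.8% and 25.1% of all tested genes were. There TIE1 fell (log2 fold change -1.22, edgeR adjusted p = 6.7e-08) and CDH5 was not called (edgeR adjusted p = 0.0613). The pluripotency list, mostly LIN28A, summed to 176 to 179 CPM in FGF8+10 Pdgfra-positive and 241 to 242 in FGF8+10 Pdgfra-low, against 89.5 to 91.4 in Mock Pdgfra-positive and 69.7 to 73.3 CPM in Mock Pdgfra-low libraries. LIN28A alone in this list rose. SOX2 (log2 fold change -4.74 in Pdgfra-positive and -5.13 in Pdgfra-low cells) and TDGF1 (-0.72 and -0.27) fell. SOX2 had at most 0.0682 CPM with FGF8+10 and passed the filter through the Mock groups alone. POU5F1 and NANOG had at most 0.102 CPM in any library and were not tested. Smooth muscle markers summed to between 31.3 and 52.7 CPM, and the epithelial, neural, somite and endoderm lists to at most 7.42 CPM each, in any library. The smooth muscle sum hides opposite changes with FGF8+10. ACTA2 rose (log2 fold change 2.52 in Pdgfra-positive and 2.03 in Pdgfra-low cells), and TAGLN rose in Pdgfra-low cells alone (1.19). CNN1 (-1.45 and -1.43) and DES (-2.07 and -3.19) fell. The part of these cell types in the changes of FRZB, DKK2, SFRP5 and DKK1 was not tested.

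The genes whose levels ran most like each antagonist's were found by the root mean square difference of centred log2 CPM over the 8 libraries, among 14179 named genes with a mean of at least 1 CPM. The measure shares its libraries with every comparison above and is a description. FRZB was nearest to RSPO1, an R-spondin that enhances WNT signalling, at 0.191, then KCND2 at 0.195 and CADM3 at 0.219. SFRP1 was nearest to ST6GALNAC2 at 0.211, then NRK at 0.341 and TRIL at 0.347. SFRP2 was nearest to OSR1, a transcription factor of lateral plate and limb connective tissue, at 0.103, with LINC00954 at 0.122 and SLITRK3 at 0.124. DKK2 was nearest to ISM1 at 0.225, VLDLR at 0.279 and DOC2B at 0.298. DKK1 was nearest to ITGA11 at 0.203, FAM107B at 0.221 and MATN3 at 0.334. SFRP5 had no gene closer than IGSF10 at 0.635, with LRRC3B at 0.662 and TNNT2, the cardiac troponin named above, at 0.668. DKK3, which hardly varied, was nearest to PIGN, TRAP1 and CLOCK at 0.0367, 0.0367 and 0.0395. Among the antagonists themselves the closest pair was FRZB and DKK2 at 0.625 and the farthest SFRP1 and SFRP5 at 5.40. All distances of SFRP5 depend on the prior count, because its FGF8+10 Pdgfra-low libraries had 0 counts. ST6GALNAC2 averaged 0.0495 CPM in Mock Pdgfra-low libraries, near the limit of detection.

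The counts of the 5 other WNT pathway lists are read against all tested genes, of which 25.8% were higher and 25.1% lower in Pdgfra-positive cells and 27.9% higher and 27.7% lower in Pdgfra-low cells. Some counted genes passed the filter only through groups where they were high, so the filter itself favoured their call. LGR6 (at most 0.0377 CPM with FGF8+10) and WNT6 (0 CPM with FGF8+10) were such lower genes in both populations. Others were WNT10B, NOTUM and SP5, lower in Pdgfra-low cells, and FZD10, higher there. They enter the medians of their lists too. The R-spondins and their LGR receptors, which amplify WNT signals, had all 7 genes tested: 3 rose and 4 fell in Pdgfra-positive cells, and 2 rose and 4 fell in Pdgfra-low cells. LGR5 averaged 12 ± 0.42 CPM with FGF8+10 and 0.317 ± 0.15 CPM with Mock in Pdgfra-positive cells (SD, n = 2 each), a log2 fold change of 5.26 ± 0.19, and 6.78 ± 0.18 in Pdgfra-low cells. RSPO1 fell, to 0.93 ± 0.15 CPM with FGF8+10 against 33.3 ± 2.9 CPM with Mock in Pdgfra-positive cells, a log2 fold change of -5.16 ± 0.12, and -5.38 ± 0.13 in Pdgfra-low cells. RSPO2, another R-spondin, fell by 1.99 ± 0.027 in Pdgfra-positive and by 2.39 ± 0.027 in Pdgfra-low cells on the log2 scale, and LGR4 rose by 1.35 ± 0.022 and 1.24 ± 0.022. The median of this list was -1.12 in Pdgfra-positive and -1.23 in Pdgfra-low cells.

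Of 19 WNT ligands, 11 were tested; 3 rose and 5 fell in Pdgfra-positive cells (median log2 fold change -1.11) and 3 rose and 7 fell in Pdgfra-low cells (median -1.61). WNT5A, which mostly signals without beta-catenin, rose in Pdgfra-positive cells to 387 ± 2.0 CPM with FGF8+10 against 146 ± 1.1 CPM with Mock, a log2 fold change of 1.40 ± 0.026. WNT9B had log2 fold changes of -2.87 ± 0.43 and -3.24 ± 0.42 in Pdgfra-positive and Pdgfra-low cells. WNT5B (-1.24 ± 0.048 and -1.31 ± 0.049) and WNT3 (-1.11 ± 0.074 and -1.61 ± 0.072) fell in both, and WNT2 fell in Pdgfra-low cells to 0.334 ± 0.062 CPM with FGF8+10 against 7.59 ± 0.14 CPM with Mock (log2 fold change -4.51 ± 0.27).

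All 18 receptors were tested, with 5 higher and 7 lower in Pdgfra-positive and 7 higher and 8 lower in Pdgfra-low cells and medians of -0.07 in each, close to the median of all tested genes. FZD8, a Frizzled receptor, had 160.3 ± 3.2 CPM with FGF8+10 against 23.9 ± 0.59 CPM with Mock in Pdgfra-positive cells, a log2 fold change of 2.75 ± 0.042, and 2.93 ± 0.041 in Pdgfra-low cells. In Pdgfra-positive cells FZD4 fell by 1.25 ± 0.045 and FZD7 fell by 1.2 ± 0.049 on the log2 scale while FZD3 rose by 1.23 ± 0.049; in Pdgfra-low cells FZD7 fell by 1.16 ± 0.049, FZD5 fell by 1.32 ± 0.32 and KREMEN1, a DKK1 co-receptor, fell by 1.06 ± 0.12.

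Of 10 other extracellular inhibitors, 9 were tested (DKK4 was not); 5 rose and 1 fell in Pdgfra-positive cells and 5 rose and 2 fell in Pdgfra-low cells (medians 0.61 and 0.52). In Pdgfra-low cells the 7 calls became 4 without FGF8+10 Pdgfra-low replicate 2. TRABD2A, a protease that inactivates WNT ligands, fell to 0.266 ± 0.082 CPM with FGF8+10 against 19.1 ± 0.85 CPM with Mock in Pdgfra-positive cells (log2 fold change -6.16 ± 0.19), and in Pdgfra-low cells to 0.618 ± 0.26 CPM against 17.2 ± 1.6 CPM (-4.77 ± 0.17). SOST, sclerostin, a secreted LRP blocker, rose to 4.46 ± 0.65 CPM with FGF8+10 against 0.0658 ± 0.046 CPM with Mock in Pdgfra-low cells, where it had 500 counts with FGF8+10 and 8 with Mock. In Pdgfra-positive cells SOST had 26 counts with FGF8+10 and 5 with Mock. APCDD1, a membrane WNT inhibitor, rose by 1.48 ± 0.027 and 1.02 ± 0.028 and CER1, Cerberus, by 1.34 ± 0.22 and 1.35 ± 0.24 on the log2 scale in Pdgfra-positive and Pdgfra-low cells.

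All 12 feedback and target genes were tested, with 4 higher and 4 lower in Pdgfra-positive cells and 4 higher and 6 lower in Pdgfra-low cells (medians -0.09 and -0.425). CCND1, cyclin D1, rose to 250.4 ± 2.5 CPM with FGF8+10 against 68.1 ± 4.5 CPM with Mock in Pdgfra-positive cells, a log2 fold change of 1.88 ± 0.039, and 3.09 ± 0.042 in Pdgfra-low cells. NKD1, a feedback inhibitor of the pathway, had log2 fold changes of -1.65 ± 0.096 and -3.13 ± 0.088. BAMBI rose by 1.34 ± 0.022 and 1.43 ± 0.022, MYC fell by 1.37 ± 0.056 in Pdgfra-positive cells, and TNFRSF19 rose by 1.41 ± 0.11 in Pdgfra-low cells. The genes of these 5 lists are named by size of change among those with a mean of at least 1 CPM over the 8 libraries.

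**Figure D4:**
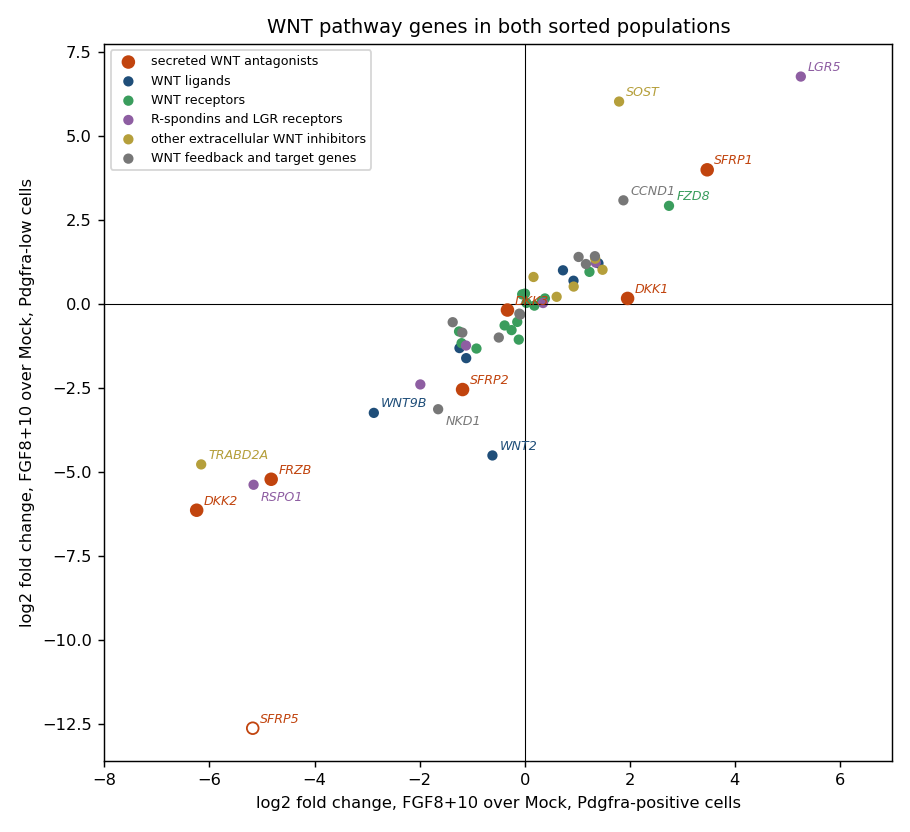
Log2 fold change with FGF8+10 over Mock in Pdgfra-positive cells (horizontal) against Pdgfra-low cells (vertical) for the 7 tested antagonists and 45 other WNT pathway genes with a mean of at least 1 CPM, coloured by list; the open symbol marks SFRP5. FRZB and RSPO1 lie close together at -4.83 and -5.16 on the horizontal axis, and WNT2 and DKK1 are among the genes that lie off the diagonal. The axes share no libraries.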

How the data were processed

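RNA was measured in 8 libraries of sorted H1 cells. The authors deposited raw counts per gene name; HISAT2 2.1.0 aligned the reads to GRCh38 after FastQC 0.11.8, per the submitters' processing notes, and featureCounts 2.0.3 counted them on GENCODE 42, per the file headers. Per the file headers pairs were not counted as 1, so both mates entered the counts, no strand was set, and a read that touched several genes was left out. The members and gene lists were chosen with earlier results of these data known.

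edgeR 4.0.16 in R 4.3.3 tested the counts, and DESeq2 1.42.0 served as 1 of the alternatives. filterByExpr kept 22554 of the 39416 genes that had reads. Libraries were scaled by TMM (factors 1.055 to 1.065 with FGF8+10, 0.936 to 0.952 with Mock), and CPM use those sizes. A robust quasi-likelihood model with 1 mean per group and 4 residual degrees of freedom gave 5 two-sided contrasts, with Benjamini-Hochberg adjustment over all tested genes at 0.05, and a second rule added a fold of at least 2. The SE is the log2 fold change divided by the square root of F. The common biological coefficient of variation was 4.06%. A group with 0 counts was bounded at 6 counts, and ratios of few counts have exact binomial 95% intervals over pairs; both cover counting error only. On simulated data with few changed genes, unchanged genes had p-values near their nominal rate, the share of false calls averaged somewhat above the threshold, and small changes were often missed. Up to 4 genes of each pathway list were named by absolute log2 fold change among those called with a mean of at least 1 CPM, and 3 nearest genes per member. Motif searches for ETS and TATAAA were added later.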

Additional observations from a re-analysis of the deposited data

Results flagged for a closer look

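For 5 antagonists the log2 fold change with FGF8+10 over Mock differed between Pdgfra-positive and Pdgfra-low cells by the interaction term of the edgeR model, given as the value in Pdgfra-positive minus that in Pdgfra-low cells. The difference was -0.526 ± 0.0703 (SE) for SFRP1 (adjusted p = 5.51e-08), which was higher with FGF8+10 in both libraries of both populations. It was 1.36 ± 0.104 for SFRP2 (adjusted p = 9.86e-15) and 0.391 ± 0.0423 for FRZB (adjusted p = 3.1e-10), both lower with FGF8+10 in each population. It was 1.79 ± 0.0779 for DKK1 (adjusted p = 3.91e-23), with 46.9 and 45.9 CPM in FGF8+10 Pdgfra-positive against 12.2 and 11.7 CPM in Mock Pdgfra-positive libraries. For SFRP5 the fitted difference was 7.45 ± 1.14 (adjusted p = 1.06e-06), and its size depends on the prior count because FGF8+10 Pdgfra-low libraries had 0 counts.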

How the results depend on the processing

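Of 482 values of log2 fold change of the members under 14 alternatives (13 for the difference between effects), 464 kept their direction and their side of the threshold, 14 lost the call, 2 gained it and 2 turned round. Those that turned round were not called: the DKK3 population difference with Mock, 0.0208 without Mock Pdgfra-positive replicate 2 (-0.109 to 0.0208 over all libraries left out), and the DKK2 difference between effects, 0.000476 without FGF8+10 Pdgfra-positive replicate 2 (-0.189 to 0.000476). The losses were those of DKK3, DKK1 and DKK2 given in the text and the DKK3 population difference with FGF8+10, which also missed the threshold without the low-count filter (adjusted p = 0.0794), with the replicate block (0.0557) and by DESeq2 (0.0529). DKK3 in Pdgfra-low cells passed without Mock Pdgfra-positive replicate 1 (0.0479) or replicate 2 (0.0487). Leaving out 1 library at a time, the number of members called was 7 in Pdgfra-positive, 5 to 7 in Pdgfra-low, 5 to 6 and 4 to 5 between populations with FGF8+10 and Mock, and 5 for the difference between effects. The count of other extracellular inhibitors called between populations with Mock moved to 3, from 5, without Mock Pdgfra-positive replicate 2 or Mock Pdgfra-low replicate 1. With the groups of the contrast alone, SFRP5 did not pass the filter between populations with FGF8+10, where 5 members were called, 2 of them at 2-fold.

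The labels do not say whether same-numbered libraries share a culture. Deviations of same-numbered libraries correlated at -0.0122 to 0.0188 over 6 pairs of groups, which cannot decide it because counting error may dominate such deviations. With the replicate block, 11366 and 12451 genes were called for FGF8+10 over Mock in the Pdgfra-positive and the Pdgfra-low population, 9232 and 5803 between populations, and 5824 for the difference between effects, against 11469, 12556, 9335, 5824 and 5862 without it. With 2 libraries per group and SFRP4 and WIF1 at 12 counts or fewer per library, changes of these genes were not detectable.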
